A study of Mus musculus with 12 samples.

Results

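The 32 genes described here encode the enzymes that build cholesterol and fatty acids, together with the proteins that regulate them. They were chosen by gene name, and all 32 were found among the 52636 genes of each count table. By role, 5 act in the mevalonate steps, 3 in the isoprenoid steps, 12 in the sterol steps from squalene onwards, 6 are regulators and 6 make fatty acids. RNA was sequenced from bone marrow neutrophils and monocytes of wild-type C57BL/6J mice aged 8 to 12 weeks. Neutrophils were treated directly after isolation in RPMI, whereas monocytes first spent 3 days in DMEM/F12 and M-CSF (10 ng/ml), which drives them to become macrophages, and are called macrophages below. The labels call them monocytes/macrophages. Each cell type was then exposed for 4 h to 1 nM calcitonin gene-related peptide (CGRP), a peptide released by sensory neurons, or to PBS as the saline control. Each of the 4 groups has 3 libraries. The sources used here do not say whether the 3 libraries of a group came from separate mice or cultures, so that p-values measure the spread between these libraries, which may be technical.

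Cells make cholesterol from acetyl-CoA through mevalonate, isoprenoid diphosphates, squalene and lanosterol, and they make fatty acids from the same acetyl-CoA by way of malonyl-CoA. The sterol genes are under the control of SREBP-2 and the fatty acid genes largely under that of SREBP-1, transcription factors that are held in the endoplasmic reticulum by SCAP and INSIG proteins when sterols are plentiful. Macrophages take up much of their cholesterol from lipoproteins and dead cells and pass it on through efflux pumps, so that synthesis, uptake and efflux are usually considered together. CGRP signals through a receptor that raises cyclic AMP.

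The labelled cell types were checked against marker genes. All 12 neutrophil markers were higher in PBS neutrophils and all 11 macrophage markers found were higher in PBS macrophages (limma-voom, adjusted p under 0.05 for each). *Itgam*, also on the macrophage list, was not matched to a single gene row and was left out. *S100a8*, the most abundant neutrophil marker, stood at 67451 ± 17263 CPM (counts scaled to library size, mean ± SD, n = 3) in PBS neutrophils and at 144 ± 41.3 CPM in PBS macrophages, and *Ly6g*, a defining marker, at 866 ± 164 CPM and at 0.539 ± 0.476 CPM. *Ctss*, the most abundant macrophage marker, reached 9139 CPM in PBS macrophages, and *Adgre1*, which encodes F4/80, 443 ± 60.9 CPM. The neutrophil libraries also held RNA of other marrow cells. Summed over their lists, markers of progenitors reached 3699 ± 234 CPM in PBS neutrophils (*Elane* highest), erythroid markers 6544 ± 806 CPM (*Hbb-bs* highest), eosinophil and basophil markers 1058 ± 84.9 CPM (*Prg2* highest) and B-cell markers 149 ± 6.66 CPM (*Cd79b* highest). Markers of T and NK cells reached 122 ± 7.38 CPM (*Nkg7* highest) and monocyte markers 4014 ± 390 CPM (*Ly6c2* highest). In PBS macrophages the same sums were 7.95 ± 1.08, 21.6 ± 1.26, 19.5 ± 1.06 and 32.4 ± 1.14 CPM, with *Cd79a*, *Ms4a1*, *Vpreb3* and *Epx* at 0 in all 3 libraries, and those of T and NK cells and of monocytes were 0.706 ± 0.301 and 800 ± 48.4 CPM. Platelet markers, nearly all *Pf4*, and dendritic cell markers, mostly *Bst2*, summed to 763 ± 187 and 174 ± 21.7 CPM in PBS macrophages against 168.5 ± 1.18 and 57.5 ± 4.38 CPM in PBS neutrophils. In bulk RNA, fewer cells of a type and less RNA per cell cannot be told apart.

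Library totals lay between 2002559 and 3631989 counts, and 3 counts, taken as the detection floor, correspond to 0.861 to 1.51 CPM. This floor covers counting error only. Levels are given as CPM scaled by the trimmed mean of M-values (TMM) over the 12 libraries, listed in the order of replicates 1, 2 and 3. The libraries were primed from the poly-A tail and counted by molecular identifiers, and where a gene is called the most abundant of a list, this is by CPM and not per length.

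The region before the start site is shown for 3 genes because the sterol genes are known to be read together through shared promoter elements. RefSeq windows on GRCm38.p6, from 250 bases before to 50 bases after a start site, were matched by symbol for 26 of the 32 genes, in 34 windows. *Sqle*, *Fdps*, *Fdft1*, *Stard4*, *Scd1* and *Scd2* were not matched. Searched on both strands, TCACNCCAC, letters of the classic sterol regulatory element bound by SREBPs, occurred in 1 of the 34 windows, that of *Hmgcs1*, and in 1.24% of all 32851 windows. The shorter CACNCCAC, which lies within it, occurred in 3 of the 34 (*Acat2*, *Hmgcs1* and *Insig1*) and in 6.24% of all windows. CCAAT, the letters of the NF-Y box, occurred in 23 of the 34 windows (67.6%) against 37.4% of all, and GGGCGG, those of the Sp1 box, in 25 (73.5%) against 35.7%. NF-Y and Sp1 are known to act beside SREBPs. TGACGTCA, the palindromic cyclic AMP response element, was in none of the 34 and in 1.79% of all windows. The windows of *Sc5d* (chr9:42264251-42264550, minus strand), *Acat2* (chr17:12960676-12960975, minus strand) and *Hmgcs1* (chr13:119690101-119690400, plus strand) follow, on the gene's own strand with CACNCCAC, CCAAT and GGGCGG in capitals in either orientation. *Sc5d* and *Acat2* are shown as members that fell with CGRP, and *Hmgcs1* as the holder of the full sterol element letters.
Sc5d: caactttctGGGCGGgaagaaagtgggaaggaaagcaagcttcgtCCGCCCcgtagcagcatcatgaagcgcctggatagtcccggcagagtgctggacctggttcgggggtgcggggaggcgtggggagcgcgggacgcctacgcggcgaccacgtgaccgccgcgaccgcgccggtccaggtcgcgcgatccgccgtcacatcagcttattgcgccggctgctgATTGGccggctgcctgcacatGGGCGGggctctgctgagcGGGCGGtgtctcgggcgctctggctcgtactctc
Acat2: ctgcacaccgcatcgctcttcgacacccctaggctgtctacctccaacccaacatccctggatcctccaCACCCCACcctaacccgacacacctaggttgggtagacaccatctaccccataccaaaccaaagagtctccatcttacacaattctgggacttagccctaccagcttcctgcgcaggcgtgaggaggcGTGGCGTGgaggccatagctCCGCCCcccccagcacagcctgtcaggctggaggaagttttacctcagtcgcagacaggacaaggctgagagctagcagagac
Hmgcs1: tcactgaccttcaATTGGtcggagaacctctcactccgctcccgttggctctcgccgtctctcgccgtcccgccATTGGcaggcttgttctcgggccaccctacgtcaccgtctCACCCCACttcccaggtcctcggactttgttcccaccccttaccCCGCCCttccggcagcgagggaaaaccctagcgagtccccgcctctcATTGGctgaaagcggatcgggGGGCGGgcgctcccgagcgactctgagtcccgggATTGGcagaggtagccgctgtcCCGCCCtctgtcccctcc
The *Sc5d* window held 1 CCAAT and 4 GGGCGG matches and no CACNCCAC. That of *Acat2* held 2 CACNCCAC, 1 GGGCGG and no CCAAT, and that of *Hmgcs1* held 1 CACNCCAC, 4 CCAAT and 3 GGGCGG. A match describes letters only.

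In macrophages, 3 genes of the pathway fell after 4 h of CGRP and none rose. *Sqle*, *Sc5d* and *Acat2* fell, out of 30 members with enough counts to be tested (limma-voom, adjusted p under 0.05). Over all 9393 genes tested, 7.43% changed, 3.97% being lower and 3.46% higher, so that the members' share of calls was close to that of all genes. More widely, 20 of the 30 members had a log2 change below 0, with a median of −0.24, whereas the median of all genes tested was 0.01 and 49.3% of them lay below 0. The groups did not overlap for 9 members that were lower with CGRP and for 2 that were higher, beside 12.5% and 11.6% of all genes tested. No test was made of these counts. The number of members called was 5 without PBS replicate 3, when *Cyp51* and *Hsd17b7* also passed, and 7 with voomWithQualityWeights. The share of all genes called in these fits is not given here, so these counts are not read as particular to the members.

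*Sqle* encodes squalene epoxidase, the enzyme that puts the first oxygen on squalene and one of the rate-limiting steps of the pathway (chr15:59315077-59331192, plus strand, GRCm38). Its level was 61.1, 48.0 and 55.0 CPM in the PBS macrophages and 25.1, 28.4 and 26.2 CPM in those given CGRP. All 3 CGRP libraries lay far below the lowest PBS library. The log2 change was −1.03 ± 0.18 (SE), to 0.49 of the PBS level, with an adjusted p of 0.0015.

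*Sc5d* encodes lathosterol oxidase, which acts late in the pathway to form 7-dehydrocholesterol (chr9:42251595-42264256, minus strand). It was at 91.2, 99.2 and 79.5 CPM with PBS and at 58.9, 37.3 and 39.8 CPM with CGRP. The groups did not overlap, and the first CGRP library stood above the other two. The log2 change was −0.99 ± 0.18, to 0.504 of the PBS level (adjusted p = 0.00257). The calls for *Sqle* and *Sc5d* were kept under each alternative setting and without any 1 of the 6 libraries.

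*Acat2* encodes the cytosolic thiolase that joins acetyl-CoA units at the entry to the mevalonate steps (chr17:12942890-12960747, minus strand). PBS macrophages had 22.4, 24.0 and 21.6 CPM and CGRP macrophages 12.5, 10.7 and 15.6 CPM. The groups were again apart, at counts of 60 to 80 against 29 to 40 per library. The log2 change of −0.83 ± 0.23 passed narrowly (adjusted p = 0.0334) and did not pass with DESeq2, without the filter on low counts, or when any 1 library other than the third PBS library was left out. Over all alternatives its adjusted p ran from 0.00955 to 0.19. In the last 500 bases of its transcript sequence, 2.34% of the 31-base stretches also occur in another annotated gene.

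**Figure D1:**
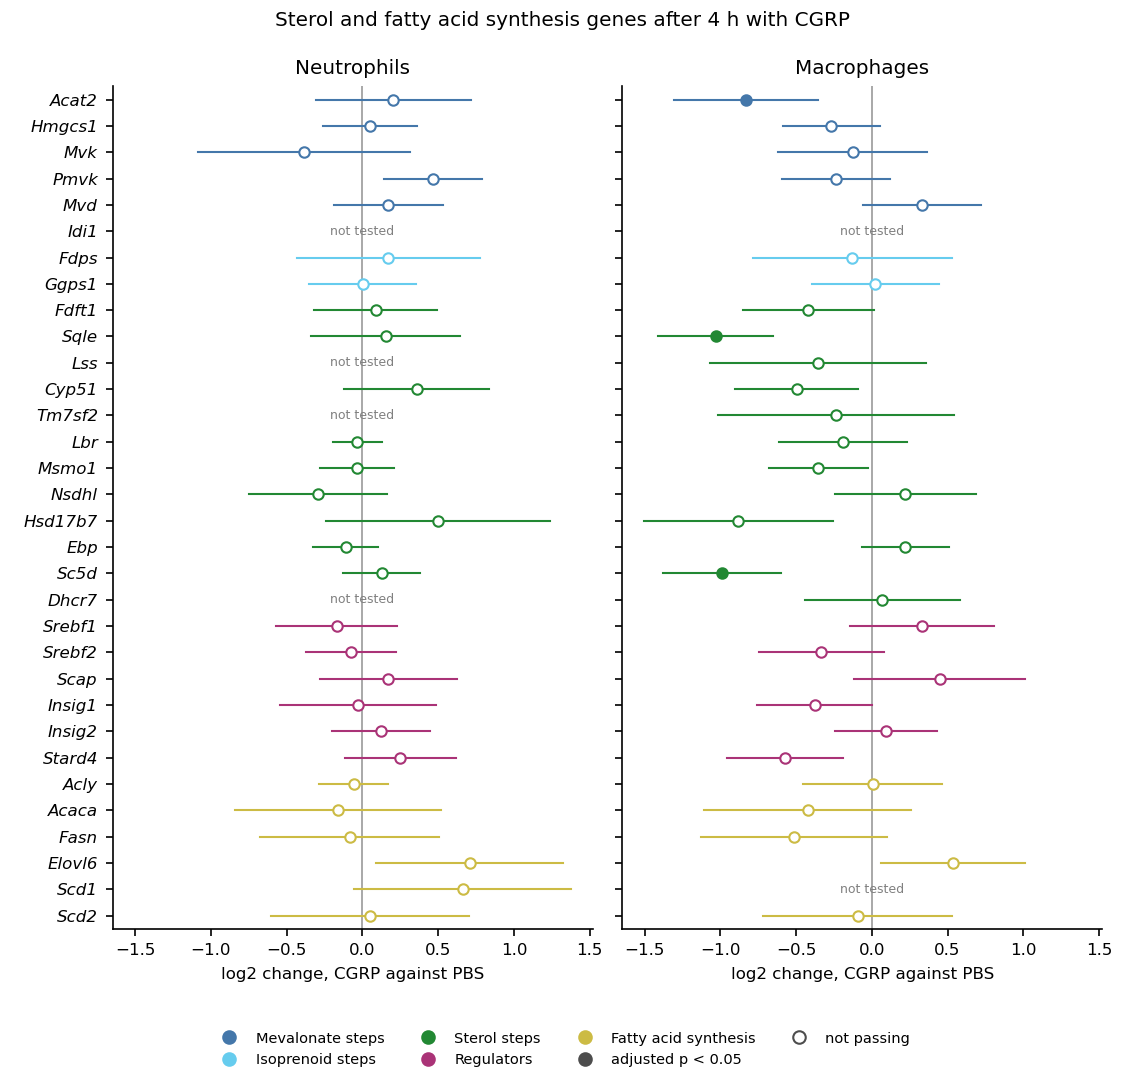
Log2 change with CGRP against PBS for the 32 genes in neutrophils (left) and macrophages (right), with points for the limma-voom estimate, bars for its 95% confidence interval and colours for roles. Filled points passed an adjusted p of 0.05, which only *Sqle*, *Sc5d* and *Acat2* did, in macrophages, where 20 of 30 points lie to the left of 0.

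Of the other mevalonate enzymes none passed the test. *Hmgcs1*, which makes HMG-CoA, had a log2 change of −0.27 ± 0.15 (adjusted p = 0.358), with CGRP libraries at 64.2, 55.0 and 69.9 CPM, all below the lowest PBS library at 72.2 CPM. *Mvk* and *Pmvk*, the successive kinases, and *Mvd*, which forms isopentenyl diphosphate, had log2 changes of −0.13, −0.24 and 0.33.

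The isoprenoid steps showed no call. *Fdps*, which makes farnesyl diphosphate, and *Ggps1*, which makes geranylgeranyl diphosphate, had log2 changes of −0.13 and 0.02. *Idi1*, the isopentenyl diphosphate isomerase, had too few counts to be tested in any comparison, with 7, 7 and 6 counts in PBS and 8, 5 and 3 in CGRP macrophages, and 3, 3 and 3 in PBS and 3, 0 and 0 in CGRP neutrophils. Of the stretches in the last 500 transcript bases of *Fdps*, 23.2% occur in another annotated gene, so that its counts are uncertain. *Ggps1* overlaps *Arid4b*, with up to 444 counts, on the opposite strand.

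In the sterol steps 9 of the 12 members had a log2 change below 0, with a median of −0.35, beside 49.3% below 0 over all genes, and 2 were called, beside 7.43% of all genes. *Hsd17b7*, the 3-keto sterol reductase, had the largest change among members that did not pass, −0.88 ± 0.29 (adjusted p = 0.0874). Its libraries were at 17.2, 12.6 and 10.4 CPM with PBS and 7.21, 7.39 and 6.54 CPM with CGRP. These groups did not overlap, but the PBS libraries were widely spread. *Cyp51*, which demethylates lanosterol, had a log2 change of −0.50 ± 0.19 (adjusted p = 0.144) with overlapping groups, *Msmo1*, the sterol methyl oxidase, −0.35 ± 0.15 (adjusted p = 0.214), and *Fdft1*, squalene synthase, −0.42 ± 0.20 (adjusted p = 0.273). *Fdft1* overlaps the very abundant *Ctsb* on the opposite strand, which had up to 57364 counts in a library, and the sources used here do not state whether counting used the strand. *Cyp51* overlaps *Akap9* in the same way, with up to 265 counts against at most 331 for *Cyp51*, so that the levels of both *Fdft1* and *Cyp51* are uncertain. *Lss*, *Tm7sf2* and *Lbr* had log2 changes of −0.36, −0.24 and −0.19. *Nsdhl*, *Ebp* and *Dhcr7*, which act at the methyl removal, isomerase and last reductase steps, had values above 0, at 0.22, 0.22 and 0.07.

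Summed over the 20 genes of the mevalonate, isoprenoid and sterol steps, PBS macrophages held 928, 921.5 and 824 CPM and CGRP macrophages 772, 709 and 740 CPM. Each CGRP library was below each PBS library. The means were 891 ± 58.4 and 740.5 ± 31.5 CPM (SD, n = 3).

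None of the 6 regulators passed the test in macrophages as fitted here, though *Stard4* did under other settings. *Stard4*, a carrier of cholesterol between membranes, was at 44.8, 36.9 and 48.5 CPM with PBS and 29.2, 27.0 and 30.2 CPM with CGRP. The groups did not overlap, and the log2 change of −0.58 ± 0.18 was outside the threshold (adjusted p = 0.0683). It passed with voomWithQualityWeights, in the single fit over 12 libraries and without PBS replicate 2 (adjusted p = 0.0159, 0.0314 and 0.0368). *Insig1*, which retains SCAP and is itself a target of SREBPs, was at 41.3, 54.5 and 40.6 CPM with PBS and 31.3, 38.0 and 35.2 CPM with CGRP, with a log2 change of −0.38 ± 0.18 (adjusted p = 0.259). Its groups were apart by little. *Srebf2*, which encodes SREBP-2, was at 43.3, 36.3 and 55.7 CPM with PBS and 31.03, 34.4 and 41.3 CPM with CGRP (log2 change −0.33 ± 0.19, adjusted p = 0.372). *Srebf1*, which encodes SREBP-1, was at 23.8, 19.8 and 28.4 CPM with PBS and 22.6, 37.7 and 31.7 CPM with CGRP (0.33 ± 0.22, adjusted p = 0.460). For both SREBP genes the libraries of the groups overlapped. *Scap* was at 14.6, 10.2 and 12.6 CPM with PBS and 12.8, 22.9 and 16.6 CPM with CGRP (0.45 ± 0.27, adjusted p = 0.386), and *Insig2* at 50.2, 46.5 and 42.4 CPM and at 53.0, 45.8 and 49.3 CPM (0.09 ± 0.16, adjusted p = 0.805). These overlapped as well.

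The fatty acid genes did not share a direction in macrophages. *Elovl6*, which elongates palmitate, was at 12.9, 12.9 and 12.2 CPM with PBS and 20.4, 17.0 and 17.6 CPM with CGRP. All CGRP libraries were higher, and the log2 change of 0.54 ± 0.22 did not pass (adjusted p = 0.183). *Fasn*, fatty acid synthase, had −0.52 ± 0.29 (adjusted p = 0.353), *Acaca*, acetyl-CoA carboxylase, −0.42 ± 0.32 (adjusted p = 0.523), and *Acly*, which supplies acetyl-CoA from citrate, 0.00 ± 0.22 (adjusted p = 0.995). Of the stearoyl-CoA desaturases, *Scd2* had −0.09 ± 0.29 (adjusted p = 0.900), and *Scd1* could not be tested, with 13, 9 and 8 counts in PBS and 8, 8 and 2 in CGRP macrophages.

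**Figure D2:**
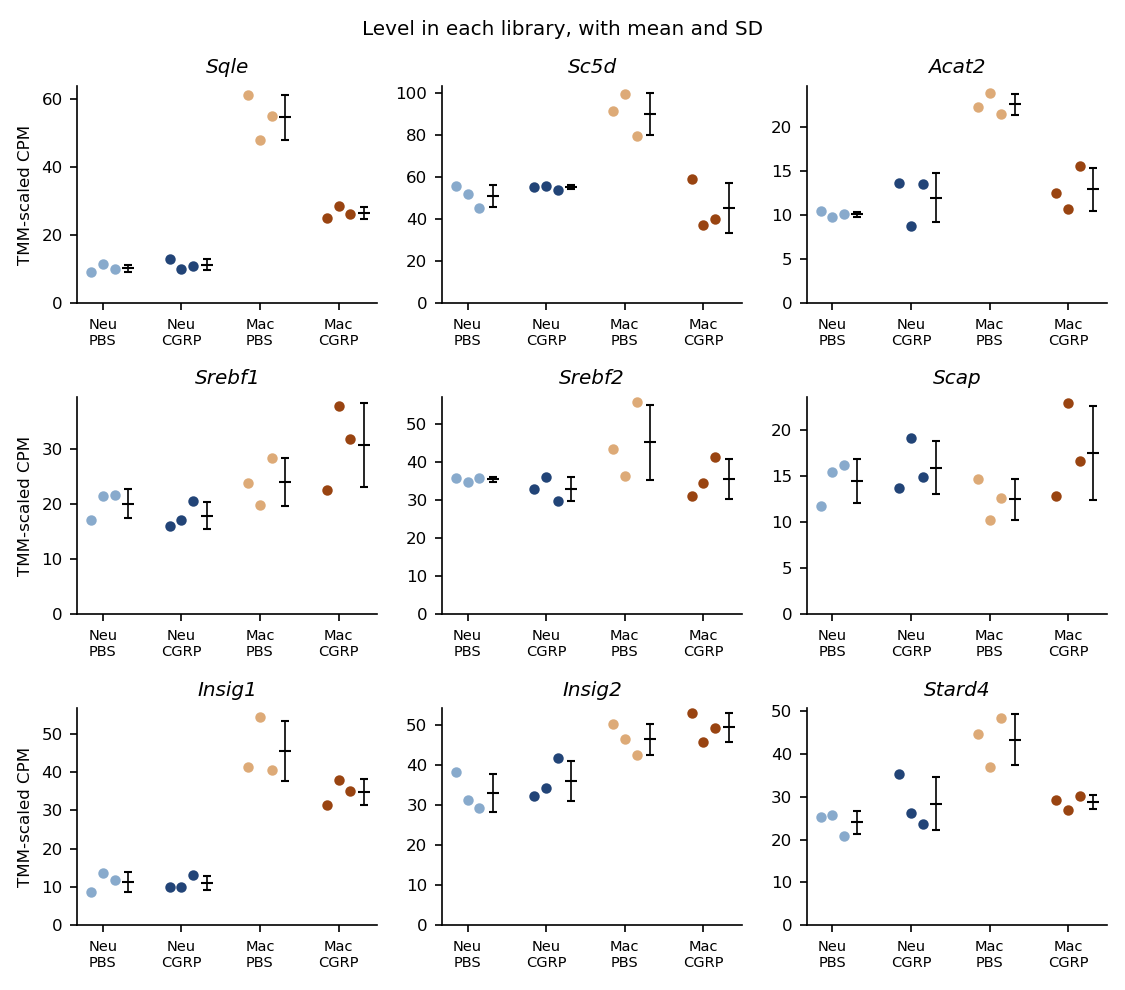
Level of the 3 genes called in macrophages (top row) and of the 6 regulators (lower rows) in each of the 12 libraries, in TMM-scaled CPM from 0, with the mean and SD (n = 3) beside each group. Neu stands for neutrophils and Mac for macrophages. *Sqle*, *Sc5d* and *Acat2* are lower in every CGRP macrophage library than in every PBS one.

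Proliferation genes moved in the same macrophage libraries. Of 16 listed, 9 fell and 1 rose (*Cenpa*), beside 3.97% of all genes that fell and 3.46% that rose, and their sum was 744.5, 772 and 600.5 CPM with PBS and 589, 468 and 404.5 CPM with CGRP. *Pcna*, the DNA polymerase clamp and the most abundant of the list in PBS macrophages, was at 210, 238 and 154 CPM with PBS and 120, 87.6 and 69.9 CPM with CGRP. *Pcna* fell by 1.11 ± 0.20 on the log2 scale (adjusted p = 0.00178). Of the 10 calls, those of *Pcna* and *Ccna2* held without any 1 of the 6 libraries, and the other 8 held in 1 to 3 of the 6 fits. That of *Mcm6* was also lost with DESeq2 and without the filter on low counts. The neutrophil markers, none of the 8 testable being called, summed to 338, 395 and 303 CPM with PBS and 447.5, 427 and 418 CPM with CGRP, so that all CGRP libraries were higher. The 11 macrophage markers summed to 20779, 20350 and 20198 CPM with PBS and 21785, 24128 and 25885 CPM with CGRP. None of the 11 was called, all had values above 0 (median log2 change 0.23), and the groups did not overlap for 4, beside 11.6% of all genes that were higher without overlap. The 6 monocyte markers, of which *Irf8* was the most abundant, summed to 757, 790 and 852 CPM with PBS and 617, 677.5 and 759 CPM with CGRP. Of these 6, *Ccr2* fell (log2 change −0.81 ± 0.12, adjusted p = 4.80e-04), 3 had values above 0 and the median was 0.13. The part of these in the fall of *Sqle*, *Sc5d* and *Acat2* was not tested.

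In neutrophils no member passed the test with CGRP. Of 28 with enough counts to be tested, 0 passed with limma-voom, beside 2.53% of the 9819 genes tested, and 0 passed with edgeR or DESeq2. An unadjusted p was under 0.05 for 2 of the 28, *Pmvk* and *Elovl6*, beside 1257 of the 9819 genes tested. The median log2 change was 0.07, with 17 values above 0 and 11 below, and that of all genes was 0.00. The groups did not overlap for 2 members that were higher with CGRP (8.10% of all genes tested) and for none that was lower (9.69%). Summed over the 20 genes of the sterol pathway, PBS neutrophils held 1080, 1137 and 1081 CPM and CGRP neutrophils 1132, 1031 and 1117 CPM, with the groups overlapping. *Lbr* alone made up most of these sums.

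The genes that fell in macrophages had these values in neutrophils. *Sqle* was at 9.17, 11.4 and 10.1 CPM with PBS and 13.01, 9.97 and 11.0 CPM with CGRP. The log2 change was 0.16 ± 0.24, with a 95% interval from −0.34 to 0.65 (adjusted p = 0.854). *Sc5d* was at 55.6, 51.9 and 45.4 CPM with PBS and 55.3, 55.7 and 53.9 CPM with CGRP (0.13 ± 0.12, interval from −0.13 to 0.38, adjusted p = 0.748). These intervals leave out a fall of the size seen in macrophages. *Acat2* was at 10.4, 9.82 and 10.1 CPM with PBS and 13.7, 8.80 and 13.6 CPM with CGRP (0.20 ± 0.25, adjusted p = 0.808), on 28 to 42 counts per library.

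The largest changes that did not pass in neutrophils were all upwards. *Elovl6* was at 10.1, 7.98 and 5.40 CPM with PBS and 15.9, 13.8 and 7.89 CPM with CGRP (0.71 ± 0.29, adjusted p = 0.294). *Scd1* was at 3.79, 3.68 and 4.32 CPM with PBS and 4.88, 8.21 and 5.70 CPM with CGRP (0.66 ± 0.34, adjusted p = 0.443), on 12 to 28 counts per library. *Hsd17b7* was at 3.16, 6.45 and 6.12 CPM with PBS and 9.10, 7.63 and 4.38 CPM with CGRP (0.50 ± 0.35, adjusted p = 0.623). The groups overlapped for *Elovl6* and *Hsd17b7* and not for *Scd1*.

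None of the regulators passed in neutrophils. *Srebf1* had a log2 change of −0.17 ± 0.19 (adjusted p = 0.791), *Srebf2* −0.08 ± 0.14 (0.887), *Scap* 0.17 ± 0.22 (0.820), *Insig1* −0.03 ± 0.25 (0.984), *Insig2* 0.12 ± 0.16 (0.822) and *Stard4* 0.25 ± 0.18 (0.618), each followed by its adjusted p. *Lss*, *Tm7sf2* and *Dhcr7* could not be tested there. Their counts were 9, 3 and 2 with PBS and 3, 5 and 5 with CGRP for *Lss*, 3, 7 and 3 and then 4, 12 and 9 for *Tm7sf2*, and 12, 11 and 7 and then 6, 8 and 10 for *Dhcr7*. In the same libraries 2 of the 6 monocyte markers, *Ccr2* and *Irf8*, fell with CGRP (log2 changes −0.49 ± 0.08 and −0.83 ± 0.12, adjusted p = 0.00134 and 1.83e-04). The 6, of which *Ly6c2* was the most abundant, summed to 4031, 4394 and 3615 CPM with PBS and 3874, 3255 and 3025 CPM with CGRP, and 5 had values below 0 (median −0.27). The part of these markers in the neutrophil values was not tested.

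The effects of CGRP in macrophages and neutrophils were then compared directly, by an interaction term over the 12 libraries. *Sc5d* and *Sqle* differed, out of 31 members tested, beside 2.36% of the 10694 genes tested. The effect in macrophages minus that in neutrophils was −1.10 ± 0.22 on the log2 scale for *Sc5d* (adjusted p = 0.00564) and −1.17 ± 0.29 for *Sqle* (adjusted p = 0.0268). *Sc5d* passed under every alternative and without any 1 of the 12 libraries. *Sqle* did not pass without the filter on low counts, or without any 1 of 6 libraries, namely each PBS neutrophil library, the first CGRP neutrophil, the first PBS macrophage and the third CGRP macrophage library, where the count of members fell to 1. Over all alternatives its adjusted p ran from 0.00939 to 0.113. For *Acat2* the difference was −1.03 ± 0.32 (adjusted p = 0.110), for *Stard4* −0.81 ± 0.25 (adjusted p = 0.105) and for *Hsd17b7* −1.37 ± 0.47 (adjusted p = 0.154), so that a difference between the cell types was not shown for them. *Stard4* passed with voomWithQualityWeights (adjusted p = 0.0413) and *Acat2* without neutrophil CGRP replicate 2 (adjusted p = 0.0440). Over the 27 members testable in each cell type, 19 differences were below 0, with a median of −0.25, beside 47.7% below 0 and a median of 0.02 for the 8635 genes so restricted.

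In PBS-treated cells, most of the members with enough counts in each cell type were higher in macrophages than in neutrophils. Of 31 members tested, 19 were higher in macrophages and 2 lower, beside 33.0% higher and 35.5% lower among the 10186 genes tested, of which 68.5% differed in all. *Lss*, *Tm7sf2* and *Dhcr7*, with too few counts to be tested in neutrophils alone, entered only through the macrophages and had to be higher there, and *Scd1* was testable only in neutrophils. Of the 27 members testable in each cell type, 16 were higher and 2 lower, with a median log2 difference of 0.63. Among the 8626 genes so restricted, 32.9% were higher and 32.1% lower, with a median of 0.02. The summed level of the mevalonate, isoprenoid and sterol members was the lower one in macrophages, at 891 ± 58.4 CPM against 1099 ± 32.3 CPM in neutrophils (mean ± SD, n = 3), where *Lbr* alone was at 665.5 CPM. Cell type, medium, M-CSF and days in culture cannot be told apart in this comparison. Of the 16 proliferation genes, 15 were lower in macrophages and 1 was higher (median log2 difference −1.91), and they summed to 744.5, 772 and 600.5 CPM in PBS macrophages and 2099, 2182 and 2063 CPM in PBS neutrophils, with *Top2a* the most abundant in the latter. Their part in the difference between the cell types was not tested. The PBS libraries are also the controls of the comparisons above.

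In the sterol steps, 7 of the 9 members testable in each cell type were higher in macrophages. *Cyp51* was at 94.96, 92.3 and 66.9 CPM in PBS macrophages and 12.96, 16.3 and 12.97 CPM in PBS neutrophils (log2 difference 2.57 ± 0.21, adjusted p = 2.58e-09), with the overlap with *Akap9* given above. *Sqle* was at 61.1, 48.0 and 55.0 CPM against 9.17, 11.4 and 10.1 CPM (2.40 ± 0.21, adjusted p = 7.95e-09). For both genes every macrophage library was above every neutrophil library. *Lss*, *Dhcr7* and *Tm7sf2* are given as levels only, since their counts in neutrophils were low. *Lss*, lanosterol synthase, was at 8.89, 5.99 and 12.9 CPM in PBS macrophages and 2.85, 0.921 and 0.72 CPM in PBS neutrophils, where 2 of the 3 libraries were at or under the floor of 3 counts. *Dhcr7*, whose product forms cholesterol from 7-dehydrocholesterol, was at 19.2, 13.8 and 18.7 CPM against 3.79, 3.38 and 2.52 CPM. *Tm7sf2* was at 6.89, 8.39 and 6.47 CPM against 0.949, 2.15 and 1.08 CPM. It shares 11.5% of the stretches in its last 500 transcript bases with other genes and overlaps *Vps51* on the same strand. *Hsd17b7*, *Msmo1*, *Sc5d* and *Ebp* differed by 1.39, 0.83, 0.82 and 0.63, and *Fdft1* by 0.47 (adjusted p = 0.0371), which was lost with DESeq2, without the filter on low counts and without any 1 library other than the third macrophage library (adjusted p up to 0.177). *Nsdhl* did not pass (0.47 ± 0.21, adjusted p = 0.0540), but passed with library totals, with voomWithQualityWeights and without macrophage replicate 3 (adjusted p = 0.0261, 0.0318 and 0.0191).

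*Lbr* went the other way. It encodes the lamin B receptor, a protein of the inner nuclear membrane that also carries sterol reductase activity and is known to be needed for the lobed neutrophil nucleus. PBS neutrophils held 637, 690 and 670 CPM and PBS macrophages 48.2, 39.0 and 59.0 CPM. The difference was −3.79 ± 0.14 on the log2 scale (adjusted p = 4.09e-14), the largest in size among the members. *Tm7sf2* encodes the other enzyme of that reductase step. Its counts were too low to be tested in neutrophils alone, so its order is not set against that of *Lbr*. The only other member lower in macrophages was *Acly*, at 55.7, 47.4 and 69.4 CPM against 75.2, 76.1 and 66.6 CPM in neutrophils (−0.36 ± 0.15, adjusted p = 0.0377). Its groups overlapped, and the call was lost with DESeq2, with library totals in place of TMM, without the filter on low counts, in a single fit over 12 libraries and without the first or second library of either cell type (adjusted p up to 0.161).

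**Figure D3:**
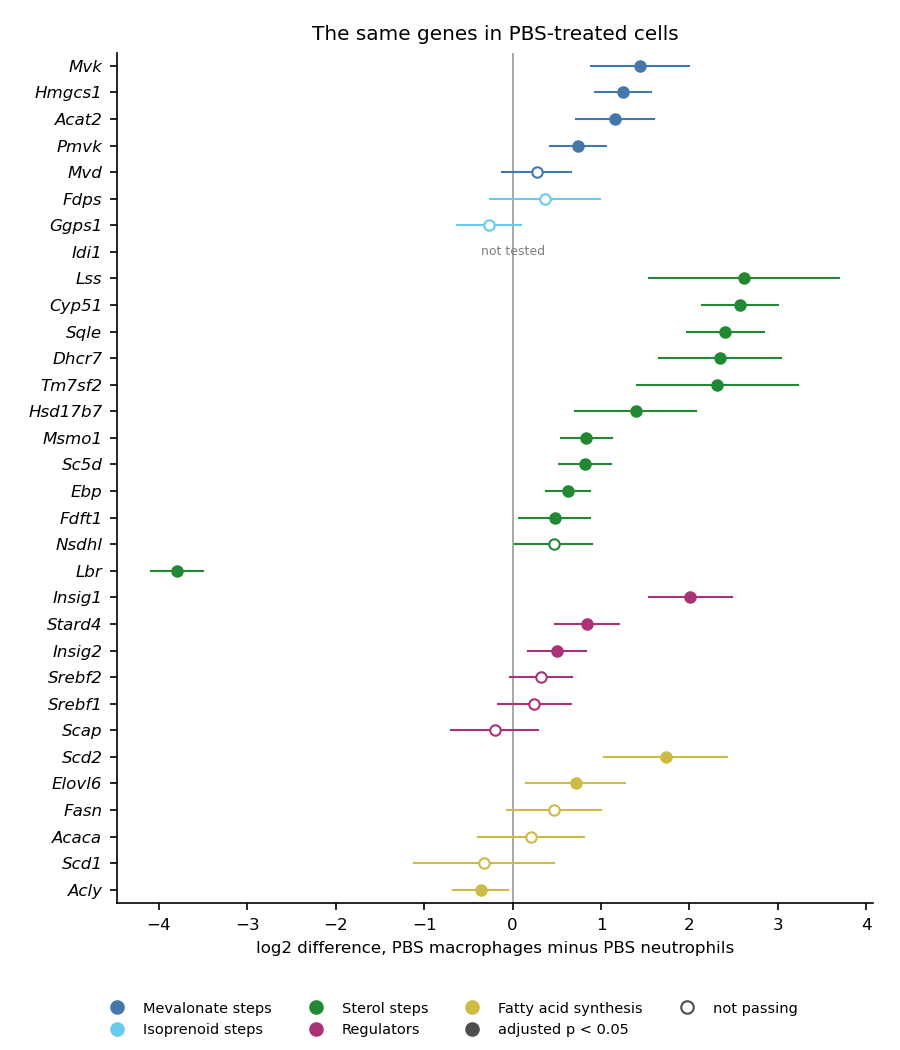
Log2 difference of PBS macrophages minus PBS neutrophils for the 32 genes, with the limma-voom estimate (points), its 95% confidence interval (bars) and the role (colours), sorted within each role. Filled points passed an adjusted p of 0.05. Of these, 19 lie to the right of 0, with *Lss*, *Tm7sf2* and *Dhcr7* at low counts in neutrophils, and 2, *Lbr* and *Acly*, to the left.

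Of the mevalonate genes, *Mvk*, *Hmgcs1*, *Acat2* and *Pmvk* were higher in macrophages by 1.44, 1.25, 1.15 and 0.74 on the log2 scale, and *Mvd* did not pass (0.27 ± 0.18, adjusted p = 0.199). Neither *Fdps* nor *Ggps1* passed (adjusted p = 0.286 and 0.179). Among the regulators, *Insig1* stood out, at 41.3, 54.5 and 40.6 CPM in macrophages and 8.54, 13.5 and 11.9 CPM in neutrophils (2.01 ± 0.22, adjusted p = 2.26e-07). *Stard4* was higher by 0.84 ± 0.17 (adjusted p = 3.03e-04) and *Insig2* by 0.50 ± 0.16 (adjusted p = 0.00890), whereas *Srebf1*, *Srebf2* and *Scap* did not pass (0.24 ± 0.20, 0.32 ± 0.17 and −0.20 ± 0.23, adjusted p = 0.283, 0.101 and 0.462). Without macrophage replicate 2, *Srebf2* passed (0.46, adjusted p = 0.0187). Of the fatty acid genes, *Scd2* was higher in macrophages by 1.73 ± 0.33 (adjusted p = 1.47e-04) and *Elovl6* by 0.71 ± 0.27 (adjusted p = 0.0236), while *Fasn*, *Acaca* and *Scd1* did not pass. The calls of *Insig2* and *Elovl6* were lost without neutrophil replicate 2 or 3 or macrophage replicate 1, that of *Elovl6* also with DESeq2 (adjusted p up to 0.0556 and 0.134).

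The neighbouring lipid genes were taken from 5 lists. Of their 74 genes testable in macrophages 7 changed with CGRP (9.46%), close to the 7.43% of all genes tested. Among 20 genes of sterol efflux, storage and oxysterol sensing, 16 could be tested in macrophages, where 2 rose and 2 fell with CGRP. *Abca1*, the pump that loads cholesterol onto apolipoproteins, was at 44.8, 37.8 and 65.4 CPM with PBS and 114, 180 and 194 CPM with CGRP. All CGRP libraries were well above the PBS libraries, by 1.73 ± 0.22 on the log2 scale (adjusted p = 7.52e-05). *Apoe*, the apolipoprotein and the most abundant gene of the list, was at 23549, 27410 and 23201 CPM with PBS and 31347, 33941 and 36325 CPM with CGRP (0.46 ± 0.12, adjusted p = 0.0263), a call lost with edgeR and without PBS replicate 1 or CGRP replicate 2 or 3 (adjusted p from 6.6e-06 to 0.212 over all alternatives). *Plin2*, which coats lipid droplets, was at 962, 966.5 and 864 CPM with PBS and 652.5, 625 and 653 CPM with CGRP. It fell by 0.53 ± 0.12 on the log2 scale (adjusted p = 0.0115), which was lost without the first PBS or the second CGRP library (adjusted p up to 0.102). *Osbpl8*, a lipid transfer protein of the endoplasmic reticulum, was at 152, 126 and 161 CPM with PBS and 64.2, 67.6 and 70.9 CPM with CGRP (−1.10 ± 0.15, adjusted p = 1.27e-04). The groups were far apart, and 14% of the stretches in its last 500 transcript bases occur in another gene.

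Of 16 further genes, mostly of the isoprenoid branches, 1 rose and 1 fell in macrophages. *Nus1*, a subunit of the enzyme that makes dolichol, was at 28.7, 26.7 and 35.2 CPM with PBS and 57.4, 67.2 and 53.3 CPM with CGRP (0.99 ± 0.18, adjusted p = 0.00174). *Pdss1*, which makes the side chain of coenzyme Q, had 15, 16 and 12 counts with PBS and 1, 4 and 3 with CGRP (−2.05 ± 0.54, adjusted p = 0.0285). The CGRP counts were at or near the floor, the call was lost with DESeq2 and without any 1 library other than the third PBS library (adjusted p up to 0.201), and *Pdss1* overlaps *Abi1*, with up to 532 counts, on the opposite strand. Of 16 genes that process SREBPs or degrade their regulators, 15 could be tested and 1 rose, *Rnf145*, a ubiquitin ligase that acts on SCAP. It was at 8.03, 7.79 and 15.8 CPM with PBS and 22.6, 24.4 and 30.7 CPM with CGRP (1.36 ± 0.27, adjusted p = 0.00451), and just missed the threshold without the first PBS library (adjusted p = 0.0502). None of 11 testable genes of sterol uptake and none of 16 further genes of fatty acid synthesis passed in macrophages.

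In neutrophils 2 of the 73 testable genes of these lists fell (2.74%), close to the 2.53% of all genes that changed. *Lipa*, the lysosomal acid lipase that frees cholesterol from its esters, was at 49.96, 60.2 and 63.0 CPM with PBS and 37.1, 33.1 and 40.8 CPM with CGRP (−0.63 ± 0.14, adjusted p = 0.0127). *Tecr*, a reductase of fatty acid elongation, was at 691, 715.5 and 676 CPM with PBS and 555, 536 and 588 CPM with CGRP (−0.30 ± 0.08, adjusted p = 0.0397). For both the groups did not overlap, and both calls were lost with library totals and in the single fit over 12 libraries, that of *Tecr* also with edgeR. Without 1 library, *Lipa* passed in 3 of 6 fits, not without PBS replicate 2 or 3 or CGRP replicate 2, and *Tecr* in 1, without the third CGRP library (adjusted p up to 0.108 and 0.22 over all alternatives). *Tecr* shares 20.2% of the stretches in its last 500 transcript bases with other genes, so its counts are uncertain. *Abca1* in neutrophils was at 7.27, 2.76 and 6.49 CPM with PBS and 9.43, 8.80 and 8.33 CPM with CGRP (0.83 ± 0.33, adjusted p = 0.271). Its interaction did not pass (0.91 ± 0.51, adjusted p = 0.491), so that a difference between the cell types was not shown.

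**Figure D4:**
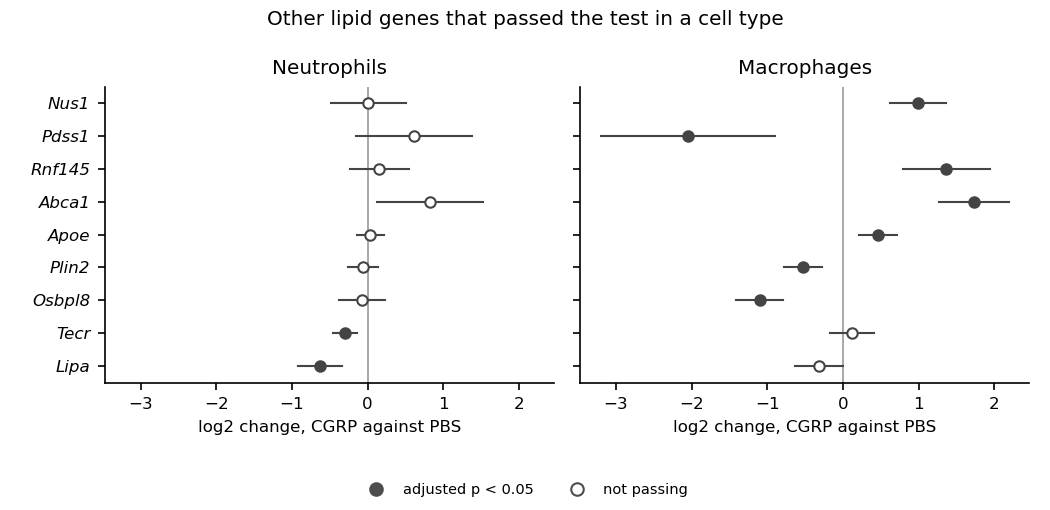
Log2 change with CGRP against PBS, with its 95% confidence interval, for the 9 genes of the other lipid lists that passed the limma-voom test in neutrophils (left) or macrophages (right). Filled points passed. *Abca1*, *Rnf145*, *Nus1* and *Apoe* lie above 0 in macrophages and *Pdss1*, *Osbpl8* and *Plin2* below, while *Lipa* and *Tecr* passed in neutrophils.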

How the data were processed

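The authors removed PCR copies by molecular identifiers with nf-core/rnaseq, aligned reads to GRCm38 with STAR and counted them with featureCounts (submitters' processing notes and the methods), and deposited raw counts per gene, 1 table per cell type. The annotation release, strand setting and low-count filter are not given in the sources used here. Columns were matched to samples by name, and no library was a copy of another. Each comparison was fitted on its own groups, the interaction on all 12 libraries. Genes were kept by filterByExpr, scaled by TMM and tested with limma-voom, the study's stated method (two-sided, Benjamini–Hochberg over all genes, threshold 0.05). Errors of log2 values are standard errors, and those of CPM are SD.

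Other settings tried were DESeq2 and the quasi-likelihood test of edgeR, limma-voom scaled by DESeq2 size factors or by plain totals, unfiltered genes, voomWithQualityWeights, a replicate block, 1 fit over 12 libraries and each library left out. The steps were run on simulated counts whose log2 changes were larger than those of the members called with CGRP or in the interaction. That run does not show how well changes of the members' size are recovered. The members and gene lists were chosen with earlier results of these data known. Named are members called with CGRP or in the interaction, the 4 furthest higher in each cell type with PBS, all regulators, the 3 largest uncalled changes per cell type, untestable members, up to 4 called genes per other lipid list and marker genes. Other members are given as values. Overlaps and shared 31-base stretches come from GENCODE on GRCm38, the stretches being those of the last 500 transcript bases. Software was R 4.3.3, limma 3.58.1, edgeR 4.0.16, DESeq2 1.42.0 and Python with pandas and matplotlib. Results for some genes of these lists are not reported here.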

Additional observations from a re-analysis of the deposited data

Results flagged for a closer look

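The effect of CGRP differed between the cell types, by the interaction term of limma-voom, for 7 of the 187 member and listed genes tested (3.74%), beside 2.36% of all 10694 genes tested. The effect in macrophages minus that in neutrophils was −1.17 for *Sqle* and −1.10 for *Sc5d* on the log2 scale (adjusted p = 0.0268 and 0.00564). Among the other lipid genes it was −2.74 for *Pdss1* and −1.01 for *Osbpl8* (adjusted p = 0.0202 and 0.00557). Among the proliferation genes it was −1.02 for *Pcna*, −1.02 for *Rrm2*, a subunit of ribonucleotide reductase, and −1.33 for *Ccna2*, cyclin A2 (adjusted p = 0.0250, 0.0443 and 0.00598). *Ccna2* overlaps *Exosc9*, with up to 145 counts, on the opposite strand. Without the filter on low counts *Sqle*, *Pcna* and *Rrm2* did not pass (adjusted p = 0.0609, 0.0576 and 0.0789). All 7 were lower in macrophages with CGRP, and none passed the test in neutrophils. Without 1 library at a time, *Sc5d*, *Osbpl8* and *Ccna2* passed in 12 of 12 fits, *Pdss1* in 9, *Sqle* in 6, *Pcna* in 4 and *Rrm2* in 2.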

How the results depend on the processing

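Of the members called, macrophages had 3 with CGRP in the fit as reported and between 2 and 4 with edgeR, DESeq2, DESeq2 size factors, library totals, no filter and the single fit, but 7 with voomWithQualityWeights, which added *Cyp51*, *Hsd17b7*, *Msmo1* and *Stard4*. Without 1 library it was 2 to 5, the 5 being without the third PBS library, when *Cyp51* and *Hsd17b7* passed. With the replicate block it was 6, adding *Cyp51*, *Hsd17b7* and *Stard4*. The shares of all genes called under these settings are not given here, so the higher counts are not read as particular to the members. Deviations of same-numbered libraries from their group means correlated at −0.179 to 0.273 in macrophages and −0.013 to 0.137 in neutrophils. Those of differently numbered libraries correlated at −0.402 to 0.386 and −0.136 to 0.108. With so few pairs these values cannot show whether the numbers pair libraries. The fit as reported therefore left the numbers out, and pairing by number was tried as the replicate block. The block left the other counts within 1.5 times. Of single genes it lost *Tecr* in neutrophils (adjusted p = 0.0594) and, between PBS cells, gained *Nsdhl* and *Srebf2* (adjusted p = 0.0288 and 0.0498). The interaction had 2 members, 1 without the filter on low counts, 3 with voomWithQualityWeights, which added *Stard4*, and 1 to 3 without 1 library, the 3 being without neutrophil CGRP replicate 2, when *Acat2* passed. Library totals in place of TMM moved the median interaction of all genes from 0.02 to −0.10, and *Sqle* and *Sc5d* still passed. Neutrophils had 0 under every alternative, and the comparison of PBS cells 17 to 23. No named gene that passed in any fit changed its direction. Depth limits genes at a few counts per library, such as *Idi1*, *Lss* and *Pdss1*. The cause of the differing counts was not tested.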
